A study of Rattus norvegicus with 12 samples.

Results

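Osteoclast cultures from rats with spinal cord injury (SCI) and functional electrical stimulation of a paralysed muscle (SCI+FES) were compared with osteoclast cultures from rats with SCI alone. The members were chosen by their titles: the 4 osteoclast arrays titled SCI+FES or SCI, of 12 arrays in all, which hold 2 of the 6 RNA pools of the study. Each pool held total RNA of 3 to 4 male Wistar-Hannover rats and was hybridised to 2 Illumina rat expression arrays, so each treatment is n = 1 pool with technical duplicates and no test of the treatment can be made. The labels do not give the ages of the rats.

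SCI was a transection of the spinal cord, and both groups carried it. Per the labels, the SCI+FES rats received a microstimulator in week 14 after SCI and were stimulated from week 16 for 60 minutes on each of 7 days, in contractions of 2 s at 40 Hz and 1.5 V with 18 s of rest. Sham-stimulated SCI rats had the implant surgery and ablation of the gastrocnemius in week 14 without a stimulator unit, and their samples were taken at week 17. Sham-operated rats without SCI, shown here only as levels, were sampled 12 to 14 weeks after surgery. Osteoclasts were grown from cultured marrow of the tibia and femur. The identifiers name culture day 3 for the osteoclast pools of SCI+FES and sham rats but name no day for that of SCI rats. The original identifiers of the SCI+FES and SCI osteoclast pools share their number and differ in a letter whose meaning the labels do not give, so whether the pools share animals is not known, and treatment cannot be told apart from any difference in culture time.

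Osteoclasts are multinucleated cells that dissolve bone. They form by fusion of progenitors of the monocyte and macrophage lineage under macrophage colony-stimulating factor and RANKL, a ligand that stromal and osteoblast-lineage cells and lymphocytes supply, and they resorb bone by pumping acid onto it and secreting cathepsin K and other proteases. Marrow is also where neutrophils, eosinophils, basophils, mast cell progenitors and megakaryocytes are made, and a marrow culture can carry such cells or their RNA along with the osteoclasts.

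Values are normalised log2 intensities, and a difference of 1 is 2-fold. Each difference carries the standard error given by the technical duplicates (±), which says nothing of the spread between animals. Folds of dim genes are understated, because a constant of 50 was added to every intensity before the logarithm. A gene was counted when the pool means differed at least 2-fold, both arrays of one pool lay above both of the other, and at least 1 pool had a detection p-value of at most 0.01 on both its arrays. Of 21645 genes, 7438 were detected by this criterion. Between 33.7% and 35% of probes were detected on each of the 4 arrays. Duplicates correlated at r = 0.992 in SCI+FES and r = 0.993 in SCI across genes, which are not independent replicates, and the SCI+FES and SCI arrays correlated at r = 0.991. The SCI+FES arrays correlated with the sham arrays at r = 0.980, and the SCI arrays with the sham arrays at r = 0.984 to 0.985.

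Under the main processing few genes differed, and those that differed 2-fold were all higher in the stimulated pool. Of the 7438 detected genes, 23 (0.309%) were at least 2-fold higher in SCI+FES than in SCI and 0 (0%) were at least 2-fold lower. The 23 included genes of granulocytes, mast cells and platelets: the eosinophil granule proteins Prg2, Prg3 and Ear11, mast cell proteases, the neutrophil genes S100a8, Mmp8 and Stfa2, and the platelet genes Gp1bb, Gp9 and Ppbp. The osteoclast genes themselves, among them Ctsk and Mmp9, stayed close to 0 difference. Over all detected genes the difference had a median of -0.01 and an SD of 0.20, with 95% of genes between -0.34 and 0.38, and 98.3% of genes lay within 0.5 of 0. No gene differed 2-fold between duplicates of either pool, and 18 genes in SCI+FES and 12 in SCI differed 1.5-fold between duplicates. With undetected arrays taken at their bound, the fold reached 2 for 20 of the 23, the exceptions being Mcpt10, Prg3 and Gp9. The count also depends on the scaling: 13 of the 23 passed when all arrays were given a common median, and those that did not included Chi3l1, Gp1bb, Gp9, Hp, Ltb, Pla2g2a, Ppbp, Prg3 and Ubd. That scaling also gave 3 genes at least 2-fold lower. With 16 added directly to the signal, 66 genes were higher and 16 lower. Another background correction with that smaller constant gave 63 higher and 10 lower. The absence of lower genes therefore depends on the processing.

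**Figure D1:**
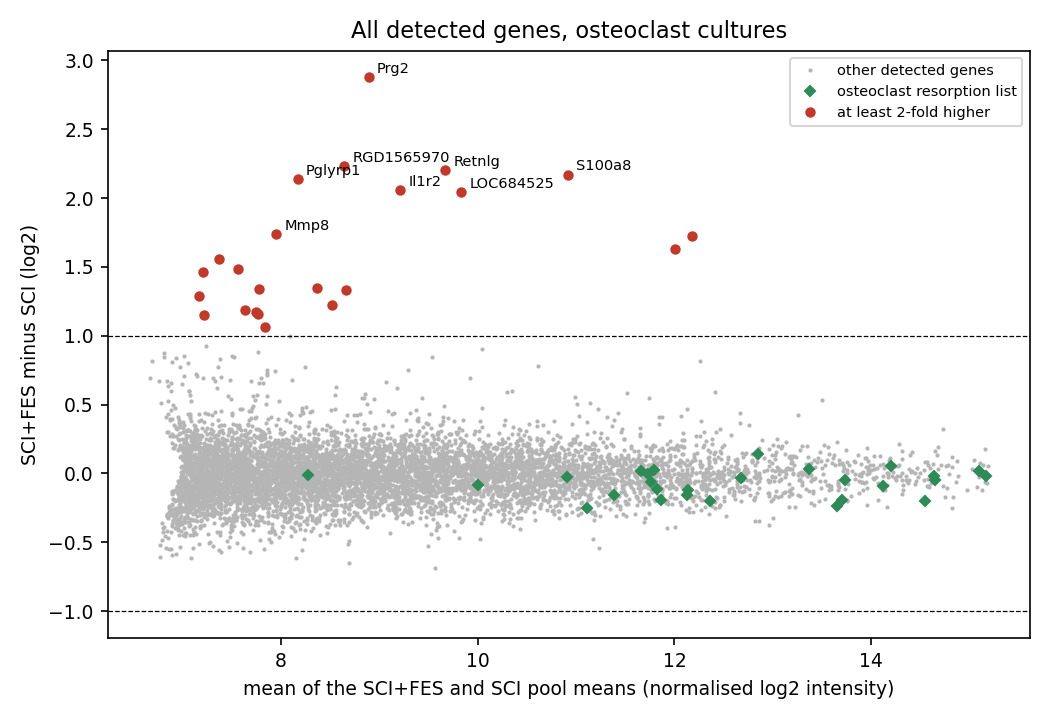
Difference between the SCI+FES and SCI osteoclast pools (vertical axis, log2) against the mean of both pool means (horizontal axis, normalised log2 intensity) for the detected genes, each point a gene. Red points are the 23 genes at least 2-fold higher in SCI+FES, green diamonds the detected osteoclast resorption genes, and the dashed lines mark 2-fold. No point lies at or under the lower line, and the green diamonds lie between -0.25 and 0.14.

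The largest difference belonged to Prg2, which encodes the major basic protein that fills the core of the eosinophil granule. Its level was 10.35 and 10.31 on the SCI+FES arrays, against 7.45 and 7.46 on the SCI arrays. The difference was 2.88 ± 0.02 or 7.34-fold, and the sham arrays, at 8.11 and 8.05, lay between. Prg3, a close relative of Prg2 in the eosinophil granule, was at 7.96 and 7.66 in SCI+FES and at 6.62 and 6.42 in SCI, where it was not detected. It was higher by 1.29 ± 0.18, at least 1.82-fold. Ear11, an eosinophil-associated ribonuclease, was at 8.02 and 8.27 in SCI+FES against 6.60 and 6.57 in SCI, where it was not detected either. Its difference was 1.56 ± 0.13, at least 2.30-fold. For these and other genes not detected on 1 or both arrays of the dimmer pool, the fold is a lower bound: each undetected SCI array was given the lowest level of any detected probe on it, unless the probe's own level was higher, before the means were compared.

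A pair of mast cell and basophil protease genes behaved alike. RGD1565970, which the array annotates only as similar to mast cell protease 8, was at 9.71 and 9.80 in SCI+FES, against 7.41 and 7.63 in SCI. This was the next largest difference after Prg2, at 2.23 ± 0.12 or 4.70-fold, and the gene was not detected in the sham pool. The probe for Mcpt8, mast cell protease 8 itself, did not meet the detection criterion. Mcpt10, mast cell protease 10, was at 7.87 and 8.01 in SCI+FES and at 6.46 and 6.50 in SCI, where it was not detected, so that it was higher by 1.46 ± 0.08, at least 1.99-fold.

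In the list of eosinophil, basophil and mast cell genes as a whole, 20 members had a probe and 9 were detected. This list, like the others here, was chosen with earlier results of these data known. Of these 9, 4 were counted as higher at 2-fold and 9 at 1.5-fold, against 0.309% and 1.05% of all detected genes, and 0 were lower. Taken as lower bounds, the folds reached 2 for 2 of the 4 and 1.5 for 4 of the 9. However, 8 of the 9 were detected in SCI+FES and on no SCI array, so they entered the count through the pool in which they were high. Their median of 0.87 therefore describes only genes selected in this way, and the median over all 20 members with a probe was 0.54. For the other 5, named after their values were seen, no SCI array detected the gene and the bounds were small. They were at least 1.10-fold for the eosinophil peroxidase gene Epx, 1.41-fold for the histidine decarboxylase gene Hdc, whose product makes histamine, 1.22-fold and 1.05-fold for the mast cell proteases Mcpt2 and Cma1, and 1.23-fold for the ribonuclease Rnase2. The summed normalised intensity of the 9 genes on the linear scale was 2821 and 2750 on the SCI+FES arrays against 885 and 882 on the SCI arrays. Most of the SCI sum came from the 8 genes not detected there, whose levels include the constant added to every intensity. The sums therefore largely compare signal with background and give no measured fold. The mast cell genes Cpa3, Fcer1a and Ms4a2, which encode carboxypeptidase A3 and subunits of the high-affinity IgE receptor, were not detected in either pool. The other members that did not meet the detection criterion were Mcpt1, Mcpt8, Tpsb2, Tpsab1, Kit, Il5ra, Gata2 and Gata1.

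Neutrophil genes formed the other large group. S100a8, a calcium-binding protein abundant in neutrophils and in activated monocytes, was at 12.01 and 11.99 in SCI+FES against 9.79 and 9.87 in SCI. It was thus 4.50-fold higher (2.17 ± 0.04). The probe for S100a9, its usual partner, was not detected on any of the 4 arrays. Mmp8, the neutrophil collagenase, was at 8.83 and 8.80 in SCI+FES and at 7.27 and 6.89 in SCI, where 1 array detected it. Its difference was 1.74 ± 0.19, at least 3.30-fold. Chi3l1, a chitinase-like glycoprotein of neutrophil granules and activated macrophages, was at 9.27 and 9.39 in SCI+FES against 7.95 and 8.05 in SCI, or 2.51-fold higher (1.33 ± 0.07).

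Stefin genes, which encode cytosolic inhibitors of cysteine proteases and are abundant in myeloid cells of rodents, were also among the 23. Stfa2 was at 13.06 and 13.02 in SCI+FES and at 11.29 and 11.34 in SCI, a difference of 1.72 ± 0.03. LOC684525, annotated as similar to stefin A2 like 1, was at 10.88 and 10.83 in SCI+FES against 8.85 and 8.78 in SCI (2.04 ± 0.05). RGD1560676, annotated as similar to stefin A2, was at 12.77 and 12.88 in SCI+FES against 11.17 and 11.22 in SCI (1.63 ± 0.06). Stefin A genes are close copies of each other, so the 3 probes may read each other's transcripts and are not 3 separate observations. On all 3 probes the SCI+FES arrays were highest, the SCI arrays intermediate and the sham arrays lowest.

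Of the neutrophil granule list, 20 members had a probe and 9 were detected, of which 4 were higher at 2-fold, 5 at 1.5-fold and 0 lower, against 0.309% and 1.05% of all detected genes higher. The detected members had a median of 0.82, while the 20 with a probe had a median of 0.23, and 2 of the 9 were detected in SCI+FES only. Taken as lower bounds, the folds reached 2 for 4 of the 4 and 1.5 for 4 of the 5. The list was not uniform. Lcn2, lipocalin 2 of the specific granules, was at 10.85 and 10.77 in SCI+FES and at 10.66 and 10.63 in SCI (0.17 ± 0.04), and Fcnb, ficolin B, was at 7.83 and 7.91 in SCI+FES against 7.79 and 7.65 in SCI (0.15 ± 0.08). Mpo, the myeloperoxidase of primary granules and of early neutrophil precursors, was detected in SCI+FES only and was at least 1.04-fold higher. These 3 were named after their values were seen. The granule genes Ltf, Np4 and Prtn3 were not detected in either pool. The summed intensity of the 9 detected genes was 16235 and 15928 in SCI+FES against 5938 and 5992 in SCI. In both pools these sums are mostly Stfa2 and S100a8.

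Other genes of leukocytes were higher as well. Pglyrp1, a peptidoglycan recognition protein stored in neutrophil granules, was at 9.21 and 9.27 in SCI+FES against 7.03 and 7.18 in SCI, 4.40-fold higher (2.14 ± 0.08). Retnlg, a resistin-like secreted protein of myeloid cells, was at 10.74 and 10.80 in SCI+FES and at 8.56 on both SCI arrays (2.21 ± 0.03, or 4.61-fold). Il1r2, the decoy receptor that captures interleukin-1 without signalling, was at 10.27 and 10.21 in SCI+FES, against 8.25 and 8.12 in SCI (2.06 ± 0.07, or 4.16-fold). The arrays of these 3 genes did not overlap, which the size rule requires of every counted gene. Hp, the haemoglobin scavenger haptoglobin, was 2.25-fold higher at 8.29 and 8.37 in SCI+FES, against 7.10 and 7.21 in SCI. Ifitm6, an interferon-induced transmembrane family member, was at 8.22 and 8.40 in SCI+FES against 6.81 and 6.83 in SCI, where it was not detected, a difference of at least 2.56-fold.

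The platelet genes were Gp1bb and Gp9, subunits of the platelet receptor for von Willebrand factor, and Ppbp, a chemokine precursor released from platelet granules. Gp1bb was at 8.41 and 8.49 in SCI+FES against 7.15 and 7.07 in SCI, 2.54-fold higher (1.34 ± 0.06). Gp9 was at 7.70 and 7.88 in SCI+FES and at 6.53 and 6.75 in SCI, where it was not detected (1.15 ± 0.14, at least 1.79-fold). Ppbp was at 8.34 and 8.35 in SCI+FES against 7.18 and 7.20 in SCI, 2.23-fold higher (1.16 ± 0.01). For all 3 genes the sham arrays lay between the SCI+FES and the SCI arrays. Pf4, platelet factor 4, named after its values were seen, did not follow: it was at 13.99 and 14.11 in SCI+FES and at 13.91 and 14.06 in SCI, a difference of 0.06 ± 0.10 with overlapping arrays. The megakaryocyte and platelet list had 10 members with a probe and 6 detected, with 3 higher at 2-fold and 4 at 1.5-fold, against 0.309% and 1.05% of all detected genes. Taken as lower bounds, the folds reached 2 for 2 of the 3 and 1.5 for 4 of the 4. Of the 6, 1 was detected in SCI+FES only. The median was 1.0 over the detected members and 0.31 over those with a probe.

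**Figure D2:**
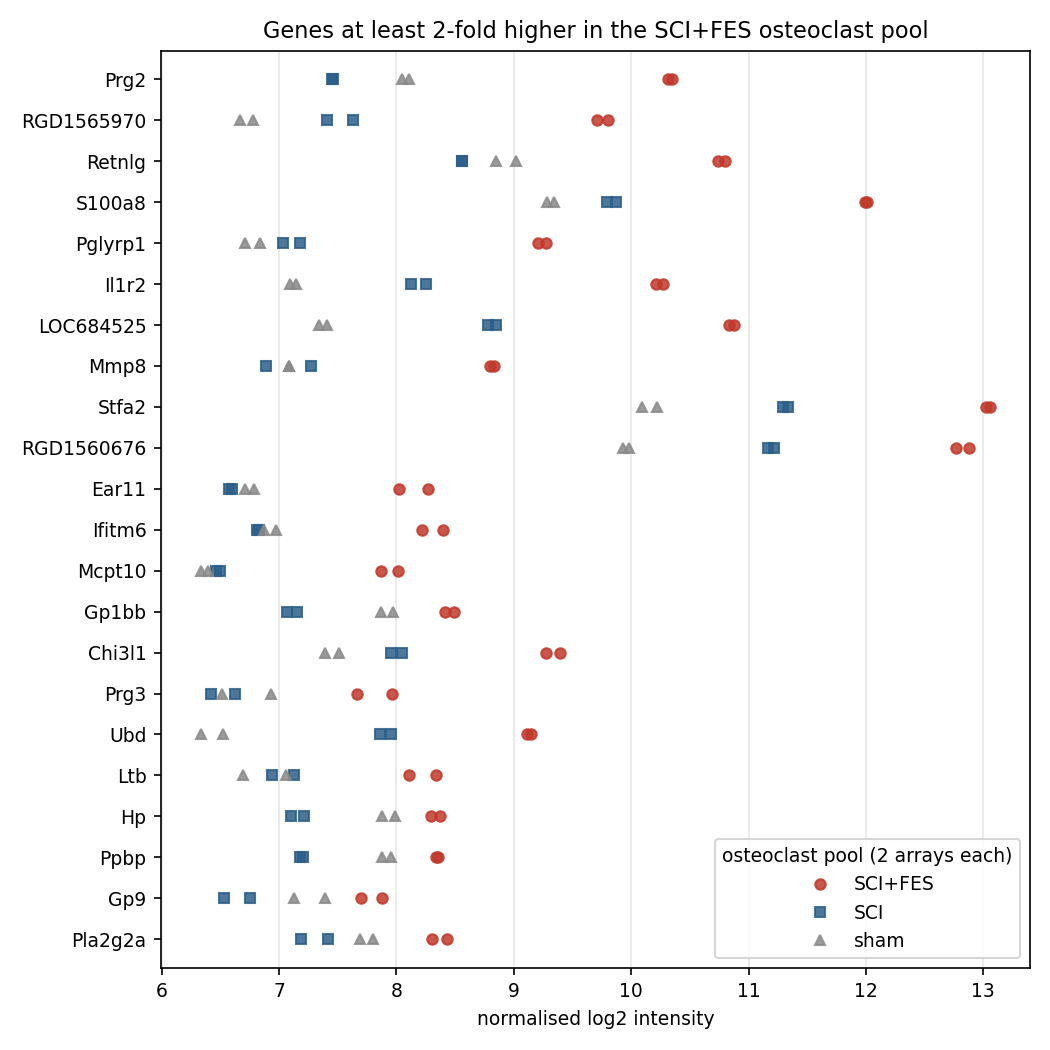
Normalised log2 intensity (horizontal axis) of the genes at least 2-fold higher in the SCI+FES osteoclast pool that are reported by name, a row per gene in order of the difference, with red circles for the 2 SCI+FES arrays, blue squares for the 2 SCI arrays and grey triangles for the 2 sham arrays. The red circles lie right of the blue squares in every row, as the size rule requires. The differences run from 1.06 for Pla2g2a to 2.88 for Prg2. The sham arrays fall left of, between or right of the SCI arrays depending on the gene.

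The remaining genes were of mixed kind. Ubd, a ubiquitin-like protein that interferon gamma and tumour necrosis factor induce, was at 9.11 and 9.15 in SCI+FES against 7.86 and 7.95 in SCI (1.23 ± 0.05), and was not detected in the sham pool. Ltb, the lymphotoxin beta made by lymphocytes, was at 8.11 and 8.34 in SCI+FES and at 6.94 and 7.13 in SCI, where 1 array detected it (1.19 ± 0.15, at least 2.25-fold). Pla2g2a, a secreted phospholipase found in platelets, was the smallest of the 23 at 1.06 ± 0.14 and is named here after its values were seen. Just outside the limit, and likewise chosen after its value was seen, stood LOC362350, annotated as similar to the T-cell receptor beta-2 chain C region, with 1.0 ± 0.08 (8.57 and 8.60 in SCI+FES, 7.66 and 7.51 in SCI).

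Because RNA was measured in bulk, more cells of a type and more RNA per cell cannot be told apart in any of these groups. The marker sets of other marrow cells can be given beside the results. Of 7 neutrophil markers with a probe, 3 were detected, and their summed intensity was 4416 and 4368 in SCI+FES against 1101 and 1157 in SCI. That sum is mostly S100a8, 1 of the other 2, Mpo, was detected in SCI+FES only, and the median over all 7 was 0.09. Of 6 eosinophil or mast cell markers, 3 were detected, at 1640 and 1554 in SCI+FES and 342 and 377 in SCI. That sum is mostly Prg2 in SCI+FES, the other 2, Epx and Hdc, were detected in SCI+FES only, and the median over all 6 was 0.47. All 3 megakaryocyte markers with a probe were detected, and their sum, set mostly by Pf4, was 16813 and 18219 in SCI+FES against 15613 and 17339 in SCI. All 7 T or NK cell markers with a probe met the detection criterion, with sums of 2122 and 2164 in SCI+FES and 1476 and 1525 in SCI. Of these 7, 4 were detected on all 4 arrays and 2 were detected in SCI+FES only. These sums share genes with the results above, and the part that other cell types have in those results was not tested.

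Osteoclast genes showed no such difference. Of the osteoclast markers, 7 had a probe and 6 were detected, each on all 4 arrays, with summed intensities of 69840 and 66324 in SCI+FES against 69886 and 67382 in SCI. These sums are mostly Ctsk and Mmp9. The differences of the 6 had a median of -0.09, with 4 below 0 and 2 above. Of 10 osteoblast and stromal markers, Alpl, Bglap, Ibsp, Col1a1, Dcn, Postn and Cxcl12 were not detected in either pool, while Sparc, Col1a2 and Lum were detected on all 4 arrays. The summed intensity of these 3 was 720 and 670 in SCI+FES against 758 and 755 in SCI. The calcitonin receptor gene Calcr was detected on 1 SCI+FES array and no SCI array. Acp5, Ocstamp, Itgb3, Nfatc1 and Csf1r had no matched probe and were not analysed here.

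Ctsk, the collagen-degrading cathepsin K, was at 15.14 and 15.08 in SCI+FES and at 15.09 on both SCI arrays, a difference of 0.01 ± 0.03. Mmp9, a gelatinase of migrating and resorbing osteoclasts, was at 14.30 and 14.16 in SCI+FES against 14.22 and 14.13 in SCI (0.05 ± 0.08). For both genes the arrays of the pools overlapped. Car2, the carbonic anhydrase that supplies protons for acid secretion, was at 12.08 and 12.02 in SCI+FES and at 12.25 and 12.17 in SCI (-0.16 ± 0.05). Atp6v0d2, a subunit of the osteoclast proton pump that is also needed for fusion in mice, was at 12.93 and 12.96 in SCI+FES against 13.20 and 13.02 in SCI (-0.17 ± 0.09). Tcirg1, another subunit of that pump, was at 13.47 and 13.60 in SCI+FES and at 13.77 and 13.78 in SCI (-0.24 ± 0.07). The last 3 genes had lower levels on both SCI+FES arrays than on both SCI arrays, by far less than 2-fold. The share of all genes separated in this way was not counted.

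The 27 osteoclast resorption genes with a probe were all detected, 0 passed at 2-fold or 1.5-fold in either direction, and their differences ran from -0.25 to 0.14 with a median of -0.05. Of these 27, 21 were below 0 and 6 above. The 21 detected genes of osteoclast differentiation and fusion likewise held 0 that passed, with a median of -0.04, 15 below 0 and 6 above. Among all detected genes, 3914 were below 0 and 3523 above. The receptor gene for RANKL, Tnfrsf11a, was at 7.44 and 7.37 in SCI+FES against 7.17 and 7.30 in SCI (0.18 ± 0.07), and its signalling adaptor Traf6 differed by -0.04 ± 0.11. The fusion gene listed under the older symbol Tm7sf4, now Dcstamp, was at 10.08 and 9.98 in SCI+FES and at 10.18 and 10.17 in SCI (-0.15 ± 0.05). Oscar, an immunoreceptor that costimulates osteoclast formation, differed by -0.04 ± 0.10. The largest differences among the 2 lists were those of Rgs18, a regulator of G protein signalling, with 7.84 and 7.91 in SCI+FES against 8.37 and 8.29 in SCI (-0.45 ± 0.05), and Trem2, a receptor of myeloid cells, with 13.14 and 13.19 in SCI+FES against 12.89 and 12.94 in SCI (0.25 ± 0.03). The RANKL gene Tnfsf11, its decoy receptor Tnfrsf11b, and the Wnt pathway genes Wnt5a and Dkk1 were not detected in either pool.

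**Figure D3:**
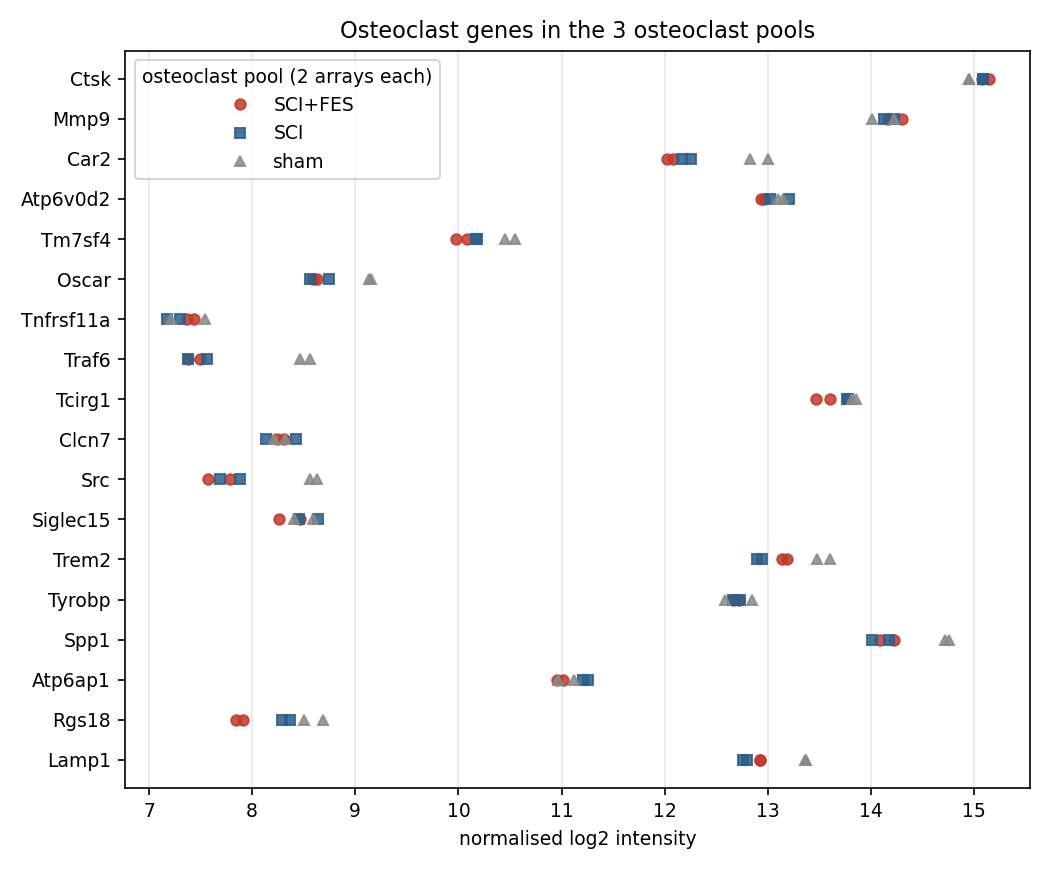
Normalised log2 intensity (horizontal axis) of osteoclast genes in the 3 osteoclast pools, with red circles for SCI+FES, blue squares for SCI and grey triangles for sham, 2 arrays each. The SCI+FES and SCI symbols lie close together for every gene, from Ctsk with 0.01 to Rgs18 with -0.45.

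Promoter sequences are shown for a neutrophil, an eosinophil and a platelet gene among the 23, since these genes were higher together. Promoters of 250 bases before to 50 bases after the gene start were taken from RefSeq on the rat build GRCr8, and 13 of the 23 genes had an entry. Mmp8 lies at chr8:13008640-13008939, Prg3 at chr3:90478904-90479203 and Gp9 at chr4:121792592-121792891, all on the plus strand. Each is written 5′ to 3′, and capitals mark matches, on either strand, to GATAA (the core bound by GATA factors), AGGAAG (a core bound by ETS factors) and TTNNGNAA (the half-sites bound by C/EBP factors).
Mmp8: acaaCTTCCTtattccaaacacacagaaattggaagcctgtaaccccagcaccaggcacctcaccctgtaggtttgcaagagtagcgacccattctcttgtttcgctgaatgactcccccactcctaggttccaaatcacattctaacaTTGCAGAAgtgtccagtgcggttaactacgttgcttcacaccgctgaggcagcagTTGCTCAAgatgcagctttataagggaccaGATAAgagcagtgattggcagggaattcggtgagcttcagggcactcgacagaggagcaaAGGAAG
Prg3: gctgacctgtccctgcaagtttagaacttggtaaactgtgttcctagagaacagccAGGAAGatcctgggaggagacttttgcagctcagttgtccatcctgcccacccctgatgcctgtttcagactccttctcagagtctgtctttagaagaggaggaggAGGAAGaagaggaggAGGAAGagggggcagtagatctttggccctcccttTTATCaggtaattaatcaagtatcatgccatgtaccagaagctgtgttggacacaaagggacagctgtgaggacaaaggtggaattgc
Gp9: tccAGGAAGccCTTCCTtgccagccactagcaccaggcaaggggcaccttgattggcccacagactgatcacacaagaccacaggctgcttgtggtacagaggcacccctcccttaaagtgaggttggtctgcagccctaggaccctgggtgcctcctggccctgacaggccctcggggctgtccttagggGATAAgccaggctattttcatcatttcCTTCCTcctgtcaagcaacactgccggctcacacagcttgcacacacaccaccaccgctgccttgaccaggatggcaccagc
The Mmp8 window held all 3 motifs, with GATAA at position -16 from the gene start, and the Prg3 and Gp9 windows held GATAA, at positions -38 and -59, and AGGAAG but not TTNNGNAA. Among all 33469 RefSeq promoters of this length, 26.5% held GATAA, 34.5% held AGGAAG and 41.3% held TTNNGNAA. Of the 13 promoters of the genes higher in SCI+FES, GATAA was in 7, AGGAAG in 6 and TTNNGNAA in 7. No marked run overlaps another in the 3 printed windows. A match describes the letters of the window and is not evidence of binding.

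Below 2-fold, a limit of 1.5-fold that was chosen after the data were seen gave 78 genes higher (1.05%) and 6 lower (0.0807%) in SCI+FES. With undetected arrays taken at their bound, the fold reached 1.5 for 58 of the 78 and 3 of the 6. Lymphocyte genes and chemokines made up part of the 55 added on the higher side. In the T and NK cell list, 14 of 25 members with a probe were detected, 0 passed at 2-fold, and 6 were counted as higher at 1.5-fold, of which 4 reached it by their bound. The median was 0.43 over the detected members, 3 of which were detected in SCI+FES only, and 0.18 over all 25. Cd3g and Cd247, chains of the T-cell receptor complex, were both among the 6. Cd3g differed by 0.84 ± 0.09, and Cd247 was at 7.38 and 7.62 in SCI+FES and not detected in SCI (6.88 and 6.71), at least 1.47-fold higher. Of the genes picked after their values were seen, Nkg7, a granule membrane protein of cytotoxic cells, differed by 0.68 ± 0.10 and the perforin gene Prf1 by 0.67 ± 0.07.

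In the list of chemokines and receptors, 24 members had a probe and 17 were detected, 1 of them in SCI+FES only. Of the 17, 1, Ppbp, was 2-fold higher, 6 were at least 1.5-fold higher and 1 was at least 1.5-fold lower. The shares over all detected genes were 0.309%, 1.05% and 0.0807%. The median was 0.42 over the detected members and 0.20 over those with a probe. Cxcr2, the receptor by which neutrophils follow several CXC chemokines, was at 7.58 and 7.82 in SCI+FES and not detected in SCI, at 6.77 and 6.78, which makes it at least 1.68-fold higher. The T-cell attractants Ccl17 and Ccl22 differed by 0.78 ± 0.05 and 0.63 ± 0.04, and the neutrophil attractant Cxcl2 by 0.67 ± 0.06. These 4 were named after their values were seen. Cxcl13, which attracts B cells, went the other way, at 8.51 and 8.22 in SCI+FES against 9.05 and 8.99 in SCI (-0.65 ± 0.15).

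All 6 members of the MHC class II list that matched a probe were detected and above 0, with a median of 0.39, and 1 passed at 1.5-fold. Among all 7438 detected genes, 3523 were above 0 and 1.05% passed as higher at 1.5-fold. Hla-dma, a class II gene under a symbol that the list did not match, also passed at 1.5-fold (0.59 ± 0.04). It was named after its values were seen. RT1-Db1, a class II beta chain, was at 12.52 and 12.82 in SCI+FES and at 11.93 and 11.77 in SCI (0.82 ± 0.17), and Cd74, the invariant chain, was at 13.67 and 13.86 in SCI+FES against 13.25 and 13.22 in SCI (0.53 ± 0.10). Id1, an inhibitor of differentiation induced by BMP signals, was at 10.48 and 10.50 in SCI+FES against 9.63 and 9.55 in SCI (0.91 ± 0.04). The 24 detected macrophage and monocyte genes had a median of 0.04 and none passed at 1.5-fold. Among them C1qa and C1qb, chains of the first complement component, differed by 0.55 ± 0.03 and 0.55 ± 0.11.

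The 6 genes counted as lower at 1.5-fold in SCI+FES were Nupr1, Cxcl13, Zfp189, Ifih1, Cep70 and Spats2l. Nupr1, a small nuclear protein of the stress response, was at 9.31 and 9.12 in SCI+FES and at 9.94 and 9.87 in SCI (-0.69 ± 0.10). Ifih1, a sensor of viral RNA, was at 7.86 and 7.84 in SCI+FES against 8.51 and 8.42 in SCI (-0.61 ± 0.05). Zfp189, Cep70 and Spats2l were detected in SCI only, so their levels in SCI+FES are bounds: they were at least 1.33-fold, 1.07-fold and 1.15-fold lower, short of 1.5-fold. These 3 and Cxcl13 were named after their values were seen.

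Interferon-stimulated genes lay slightly low as a list. Of 29 detected type I interferon response genes, 21 were below 0 and 8 above, against 3914 below and 3523 above among all detected genes, with a median of -0.14, and 1, Ifih1, passed at 1.5-fold. The antiviral GTPase Mx2 was at 10.90 and 10.97 in SCI+FES against 11.40 and 11.43 in SCI (-0.48 ± 0.04), and its relative Mx1 was at 12.75 and 12.80 in SCI+FES against 13.12 and 13.18 in SCI (-0.38 ± 0.04), both picked after their values were seen. Ifitm3, a membrane protein that blocks virus entry, differed by -0.54 ± 0.04. On each of these 3 probes both SCI+FES arrays lay below both SCI arrays, but the share of all genes separated in this way was not counted. Among the 8 members above 0, Isg20 (0.36 ± 0.07) and Ifit3 (0.24 ± 0.04) had both SCI+FES arrays above both SCI arrays. They too were named after their values were seen. In the osteoblast cultures the same list had a median of 1.0, with 14 of 28 detected members 2-fold higher in SCI+FES and 0 lower, against 1.72% and 1.52% of all genes detected there; this difference between culture types was not tested.

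Housekeeping groups stayed near the overall median. Cytosolic ribosomal protein genes had a median of 0.01 over 38 detected members and oxidative phosphorylation genes a median of -0.08 over 28, while DNA replication and mitosis genes had a median of 0.15 over 30, with 24 above 0. None of the members of these 3 lists passed at 1.5-fold. A scaling that gave all arrays a common median moved the median of all detected genes to -0.35, and under it the DNA replication median was -0.23 and the macrophage median -0.23, so the sign of these medians depends on the scaling. Among detected genes both medians lay above that of all genes. Over all members with a probe, in the same setting, they were -0.22 and -0.23, below the -0.08 of all genes. The osteoclast resorption median was 0.01 with the authors' matrix values and -0.46 under the common median. Over all members with a probe, detected or not, the medians under the common median were 0.42 for the eosinophil, basophil and mast cell list, 0.16 for the neutrophil list, 0.24 for the platelet list, 0.05 for the T and NK cell list, 0.13 for MHC class II and 0.02 for chemokines. The median over all 21645 genes was -0.08 in that setting.

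**Figure D4:**
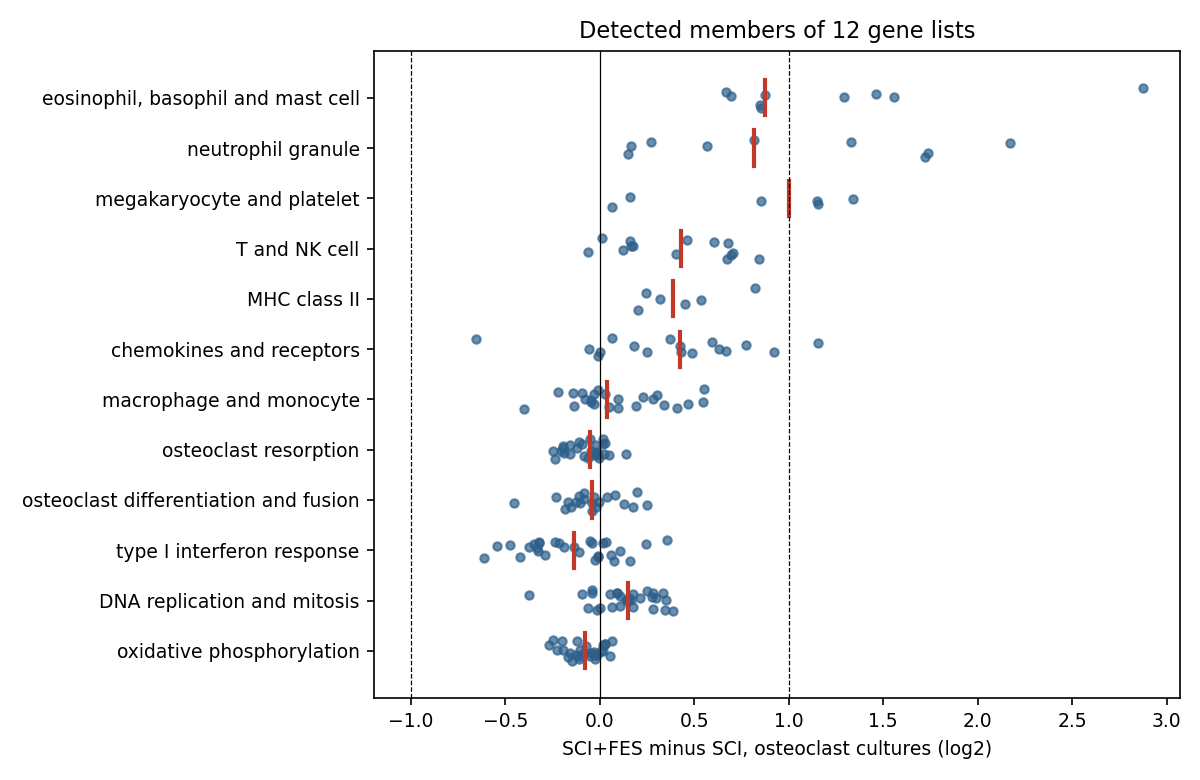
SCI+FES minus SCI in the osteoclast cultures (horizontal axis, log2) for the detected members of 12 gene lists, each point a gene, with a red bar at the list's median and dashed lines at 2-fold. The eosinophil, neutrophil and platelet medians lie at 0.87, 0.82 and 1.0, and the osteoclast resorption and oxidative phosphorylation genes gather around 0.

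The same treatment comparison in the osteoblast cultures differed in extent. There, of 8183 detected genes, 141 (1.72%) were at least 2-fold higher and 124 (1.52%) at least 2-fold lower in SCI+FES, and the SD of the differences was 0.20 in osteoclast and 0.40 in osteoblast cultures. Whether the extents differ beyond the spread between pools was not tested, as each is a single pair of pools. Of the 23 genes higher in osteoclast cultures, 5 were also higher in the osteoblast cultures, which is 21.7% of the osteoclast genes and 3.55% of the osteoblast genes. They included Il1r2 (2.06 in osteoclast and 1.13 in osteoblast cultures), Retnlg (2.21 and 1.02), Ltb (1.19 and 1.49) and Ubd (1.23 and 2.28). A pair of eosinophil genes passed at 2-fold with the opposite sign: Prg2 was 2.88 in osteoclast and -1.09 in osteoblast cultures, and Ear11 was 1.56 and -1.18. Short of 2-fold, Prg3 (-0.55), Gp1bb (-0.83) and Mcpt10 (-0.08) were also below 0 in the osteoblast cultures. There RGD1565970 (0.67), Chi3l1 (0.54) and Hp (0.31) were above 0, likewise short of 2-fold. Of the 23, 10 were not detected in the osteoblast cultures, among them S100a8, Mmp8 and the 3 stefin genes. The 120 genes higher in the osteoblast comparison that were detected in osteoclast cultures had a median difference of 0.08 there, and the 41 lower ones a median of -0.10.

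**Figure D5:**
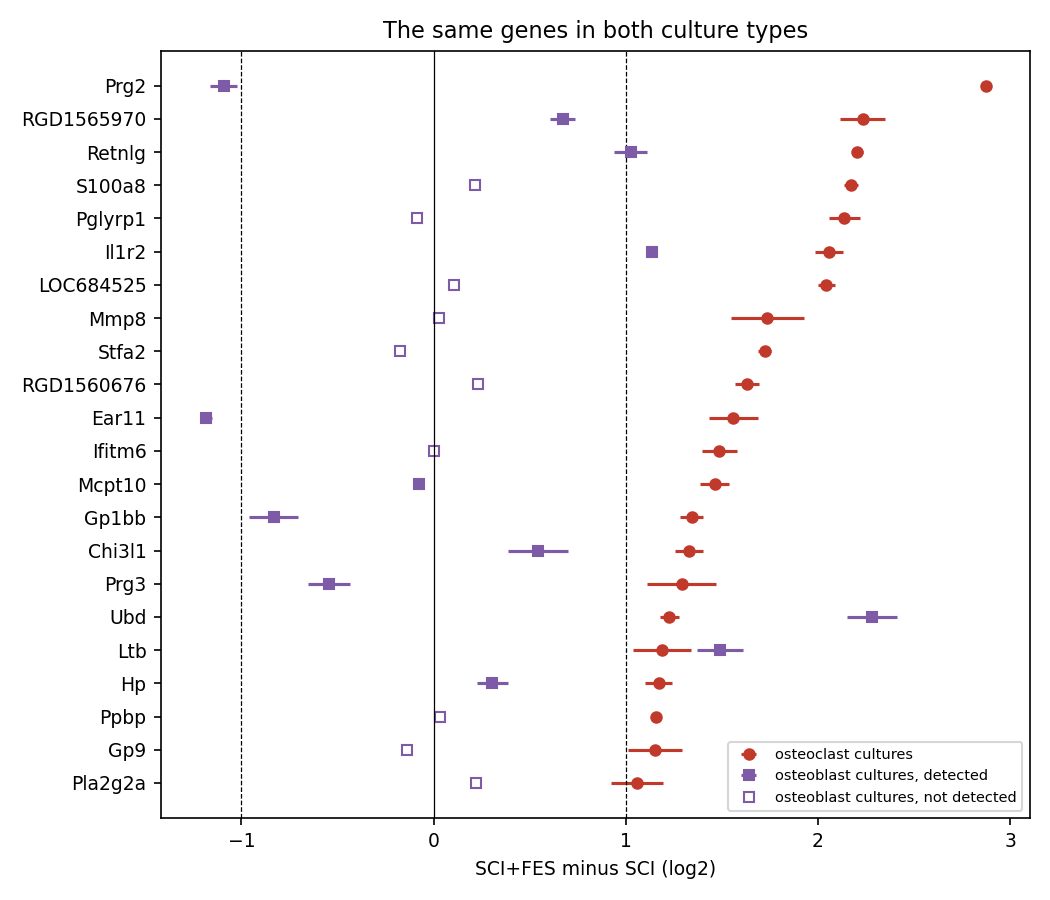
SCI+FES minus SCI (horizontal axis, log2) for the same named genes in osteoclast cultures (red circles) and in osteoblast cultures (purple squares, open where not detected), with bars for the standard error over duplicate arrays and dashed lines at 2-fold. Of the genes drawn, only Retnlg, Il1r2, Ubd and Ltb exceed the upper line in both, and Prg2 and Ear11 fall under the lower line in osteoblast cultures.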

How the data were processed

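Per the labels' protocols, RNA was extracted with phenol-chloroform and columns, passed an integrity check, was pooled within groups and was labelled with biotin for Illumina arrays. Which scanner software was used is not given in the sources used here. Per the file headers, the deposited table holds for every array its probe intensity and its detection p-value, over 22523 probes and 12 arrays on 1 chip. On each array, 26.8% to 30.4% of these deposited intensity values were negative, so background had been subtracted before deposit. The authors' series matrix holds intensity values that are a linear function of those in the table (r = 1). Its slopes were 1.39 and 1.42 for the SCI+FES osteoclast arrays and 1.08 and 0.923 for the SCI osteoclast arrays, its column medians were 13.8 to 19.1, and the rule behind it is unknown.

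The deposited intensity was corrected with normexp (offset 50), quantile-normalised over the 12 arrays and put on a log2 scale with limma 3.58.1 in R 4.3.3. Python 3.11.15 was used for the rest. Probes were named by the file's symbol: 10281 were current in RefSeq, 2494 were updated, 9631 kept the file's symbol and 117 had none. A gene with several probes (818 genes) took the brightest. All detected genes entered the size rule, which was tested on simulated data. The simulated noise was that of the duplicate arrays, and both groups took the SCI detection p-values. The simulation therefore says nothing of the spread between pools or of genes detected in a single pool. The number of arrays and pools limits the precision.

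The comparison and the 38 gene lists were chosen with earlier results of these data known. Text names came from a rule: the 20 largest differences in each direction among the genes that passed, up to 5 passing members of each list or otherwise its 2 largest, fixed osteoclast genes, and genes passing in both culture types. Markers and list members named as detected or not detected came from the fixed lists, other names are marked in the text, and 1 gene that passed is counted but not reported here by name. Alternatives covered scaling, offset, detection filter, probe choice, the authors' matrix and leaving out each array.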

Additional observations from a re-analysis of the deposited data

Results flagged for a closer look

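Prg2 and Ear11, genes of the eosinophil granule, passed the size rule with opposite signs in the 2 culture types. This difference was not tested, since each side is a single pair of pools. For Prg2, SCI+FES minus SCI was 2.88 ± 0.02 in osteoclast cultures and -1.09 ± 0.07 in osteoblast cultures. In osteoblast cultures the Prg2 level was 9.49 in SCI+FES against 10.58 in SCI. For Ear11, the difference was 1.56 ± 0.13 in osteoclast cultures and -1.18 in osteoblast cultures.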

How the results depend on the processing

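The genes higher and lower in SCI+FES numbered 23 and 0 as reported. Adding 16 to the signal before log2, in place of normexp, gave 66 and 16, the neqc method with that offset gave 63 and 10, and a limit of 1.5-fold gave 78 and 6, the last chosen after seeing the data; all 3 settings kept the 23. Scaling all arrays to a common median moved the median of detected genes to -0.35 and gave 13 and 3; Cxcl13, Ifitm3 and Nupr1 were the lower ones, and those that no longer passed included Chi3l1, Gp1bb, Gp9, Hp, Ltb, Pla2g2a, Ppbp, Prg3 and Ubd. Quantile normalisation over the 4 arrays gave 21 and 0, without Gp9 and Pla2g2a, the authors' matrix gave 27 and 0, and the counts were 23 and 0 under 3 further settings. Leaving out 1 array at a time gave 24 to 25 higher and 0 lower, and Pla2g2a no longer passed without the first SCI+FES array or without the first SCI array. The cause of these shifts was not tested. In all settings tried, 13 genes passed: Prg2, RGD1565970, Retnlg, S100a8, Pglyrp1, Il1r2, LOC684525, Mmp8, Stfa2, RGD1560676, Ear11, Ifitm6 and Mcpt10. Over the named genes, 1010 differences under these settings were labelled the same, 152 moved and 14 no longer passed. For the 23 genes, the same means only that the gene still passed, whatever the size of its shift. For the other named genes it means a shift of no more than the spread of the duplicates, and moved means a larger one. None of the genes that passed changed sign. No paired analysis was possible because the array numbers mark technical duplicates of 1 pool for each group. Dim genes are the least certain: 7 of the 23 were undetected on at least 1 SCI array, and their folds are lower bounds.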
